A study of Mus musculus with 16 samples.

Results

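The genes described here are the nuclear-encoded subunits of respiratory complexes II to V, with cytochrome c, in mouse muscle and visceral fat. They were taken from a list of 37 symbols: 4 of complex II, 9 of complex III, 1 of cytochrome c, 13 of complex IV and 10 of complex V. Matching the Ensembl identifiers of the count table to GENCODE M21 found all 37 symbols in 38 of 55536 rows. Atp5o has 2 rows, of which 1 holds no read in any library and was left out. The matching by symbol used no measured value, but the list was chosen with earlier results of these data known. All 37 genes passed the filter on low counts in both tissues.

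Both tissues came from 8 female mice, by the numbers in the subject labels. The "Cre-Control" mice (131, 137, 138 and 11) and the "Conditional MusMyD88-/-" mice (139, 958, 960 and 29), labelled as a knockout of MyD88 in muscle, gave red gastrocnemius muscle and visceral fat, so that there were 4 groups of 4 libraries. Every mouse, controls included, ran on wheels for 5 weeks and was then held in a small cage for 8 days, and no group kept running. MyD88 is the adaptor of most Toll-like receptors and of the interleukin-1 receptor. The sources used here give no Cre driver, no deleted exons and no ages. Labels give each library a mouse of its own within its group.

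Electrons from metabolism reach the inner mitochondrial membrane through complex I and through complex II, succinate dehydrogenase, which is also an enzyme of the citric acid cycle. Complex III passes them to the soluble carrier cytochrome c, and complex IV, cytochrome c oxidase, hands them to oxygen. Complexes III and IV pump protons, and complex V, the ATP synthase, lets the protons flow back and makes ATP. Apart from complex II, these complexes also hold subunits encoded in mitochondrial DNA. Several small subunits of complex IV exist as a heart and skeletal muscle form and a form of most other tissues, encoded by separate genes, and the c ring of the ATP synthase is encoded by several genes whose mature products are the same.

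Libraries held 15203806 to 21747345 counts in muscle and 13242243 to 19114782 in fat. Levels are read counts relative to library size (CPM), scaled with the TMM factors of all 16 libraries, which puts both tissues on 1 scale. The 10 skeletal muscle fibre markers summed to 182482 to 239735 CPM in muscle and 372 to 4141 in fat, and the 8 adipocyte markers to 268 to 578 CPM in muscle and 3784 to 19993 in fat, so each tissue carried the markers of its label. Fat from control mouse 138 differed from the rest: it had the lowest adipocyte sum, and its smooth muscle and urothelium markers summed to 10220 and 1074 CPM, against at most 565 and 20.5 CPM in the fat of the knockouts. For the targeted gene Myd88, muscle levels were 3.32, 3.13, 5.21 and 4.47 CPM for control mice 131, 137, 138 and 11, and 3.30, 3.04, 2.51 and 2.92 CPM for knockout mice 139, 958, 960 and 29. The groups overlapped, and the log2 fold change of -0.47 (SE 0.20) did not pass the edgeR test (adjusted p = 0.949). The counts cover the whole gene and all cells of the muscle, so they check the labels only in part. In bulk tissue, fewer cells of a type and less RNA per cell cannot be told apart.

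Between tissues, complex IV exchanged its isoform genes. The muscle forms Cox6a2, Cox7a1 and Cox8b were higher in muscle by 163-fold, 67.5-fold and 28.0-fold. Cox6a1 and Cox8a, the forms of other tissues, were 7.97-fold and 7.59-fold higher in fat, while Cox7a2 was 1.74-fold higher in muscle. The upstream sequences of the 5 isoform genes that could be read are shown because these genes differ in direction while they encode the same 3 positions of the enzyme. Each line gives the 250 bases before the start of transcription in RefSeq (build GRCm38.p6), 5′ to 3′ on the strand of the gene. Capitals mark matches to the motifs named below. Cox6a2 is named only.
Cox6a1 (chr5:115348959-115349208, minus strand): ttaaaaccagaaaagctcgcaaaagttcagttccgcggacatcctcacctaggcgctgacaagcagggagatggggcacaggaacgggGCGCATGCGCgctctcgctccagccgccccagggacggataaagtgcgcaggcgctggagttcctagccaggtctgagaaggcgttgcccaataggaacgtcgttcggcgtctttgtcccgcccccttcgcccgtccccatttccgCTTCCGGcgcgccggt
Cox7a1 (chr7:30183921-30184170, plus strand): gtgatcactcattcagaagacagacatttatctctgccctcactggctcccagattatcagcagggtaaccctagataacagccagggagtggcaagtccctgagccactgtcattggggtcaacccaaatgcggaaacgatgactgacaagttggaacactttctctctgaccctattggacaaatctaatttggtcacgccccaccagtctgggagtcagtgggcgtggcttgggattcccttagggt
Cox7a2 (chr9:79759854-79760103, minus strand): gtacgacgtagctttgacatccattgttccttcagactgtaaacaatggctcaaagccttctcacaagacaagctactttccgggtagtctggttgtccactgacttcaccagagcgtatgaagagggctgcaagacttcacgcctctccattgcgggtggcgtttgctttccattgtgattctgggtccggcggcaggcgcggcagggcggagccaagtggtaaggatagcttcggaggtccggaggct
Cox8a (chr19:7217617-7217866, minus strand): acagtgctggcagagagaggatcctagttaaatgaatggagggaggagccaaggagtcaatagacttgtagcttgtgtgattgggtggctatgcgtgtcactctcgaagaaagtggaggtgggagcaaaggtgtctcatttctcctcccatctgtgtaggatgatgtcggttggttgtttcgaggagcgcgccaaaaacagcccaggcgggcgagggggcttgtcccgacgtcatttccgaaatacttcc
Cox8b (chr7:140900447-140900696, minus strand): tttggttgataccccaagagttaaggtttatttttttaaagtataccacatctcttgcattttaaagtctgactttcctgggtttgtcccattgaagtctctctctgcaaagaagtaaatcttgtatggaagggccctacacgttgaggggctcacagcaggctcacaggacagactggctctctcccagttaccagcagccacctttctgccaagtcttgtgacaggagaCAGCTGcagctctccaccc
Both strands were searched for the core GCATGCGC of the nuclear respiratory factor NRF1, the ETS site CCGGAAG of GABP, the element AAGGTCA of the oestrogen-related receptors, the myogenic E-box CAGCTG and, by name, the MEF2 motif. In Cox6a1 the capitals hold 2 overlapping NRF1 matches, 1 on each strand of the same palindrome, and 1 ETS match near the start. Cox8b has 1 E-box, and the windows of Cox7a1, Cox7a2 and Cox8a hold none of these letters.

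Windows were found for 28 of the 37 genes, 31 in all. The NRF1 core was in 4 of the 31, 12.9%, against 2.26% of all 32851 windows in the table, and the ETS site in 7, 22.6%, against 6.91%. The NRF1 matches lay in Cox6a1, Atp5g2, Cycs and Sdhb. The ETS matches lay in Cox6a1, Cox6b1, Atp5h, Atp5j, Sdhd, Uqcr11 and Uqcrh. The receptor element was in 1 window, that of Atp5g3, 3.23% against 4.08%, the E-box in 2, Atp5b and Cox8b, 6.45% against 13%, and MEF2 in none, against 0.508%. These are matches of letters, not sites shown to be bound.

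Cox6a1 and Cox6a2 encode the 2 forms of subunit 6A, a small membrane subunit of complex IV. Cox6a2 (chr7:128205435-128206387) had a lowest, median and highest level of 347, 377 and 451 CPM in muscle and of 0.547, 1.98 and 5.56 CPM in fat. Cox6a1 (chr5:115345642-115348981) had 8.71, 10.3 and 12.5 CPM in muscle and 46.2, 84.2 and 107 CPM in fat. Neither gene's levels overlapped between tissues, and the pair changed places. By edgeR, the log2 difference of muscle over fat was 7.35 (SE 0.39, adjusted p = 1.36e-10) for Cox6a2 and -3.00 (SE 0.15, adjusted p = 5.48e-11) for Cox6a1.

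Subunit 7A, another small membrane subunit, is encoded by Cox7a1 (chr7:30184144-30186078) in heart and skeletal muscle and by Cox7a2 (chr9:79755361-79759878) more widely. Cox7a1 was at 158, 173 and 218 CPM (lowest, median, highest) in muscle and at 1.41, 2.57 and 4.76 CPM in fat. Cox7a2 was at 86.4, 93.6 and 116 CPM in muscle and at 35.9, 55.2 and 65.6 CPM in fat. Unlike Cox6a1 and Cox8a, Cox7a2 stood in muscle at 157 to 210% of its mean fat level. The log2 differences were 6.08 (SE 0.24, edgeR adjusted p = 5.75e-12) for Cox7a1 and 0.80 (SE 0.11, edgeR adjusted p = 8.8e-06) for Cox7a2, the latter at -0.39 when libraries were scaled by total counts.

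Subunit 8 is encoded by Cox8b (chr7:140898945-140900446) in muscle and by Cox8a (chr19:7215153-7217616) in most tissues. Cox8b was at 182, 195 and 232 CPM (lowest, median, highest) in muscle and at 2.98, 5.71 and 11.5 CPM in fat. Cox8a was at 13.3, 16.3 and 21.8 CPM in muscle and at 62.6, 132 and 152 CPM in fat. As with subunit 6A, the tissues did not overlap for either gene. The log2 differences were 4.80 (SE 0.25, edgeR adjusted p = 9.26e-11) for Cox8b and -2.92 (SE 0.16, edgeR adjusted p = 1.72e-10) for Cox8a.

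**Figure D1:**
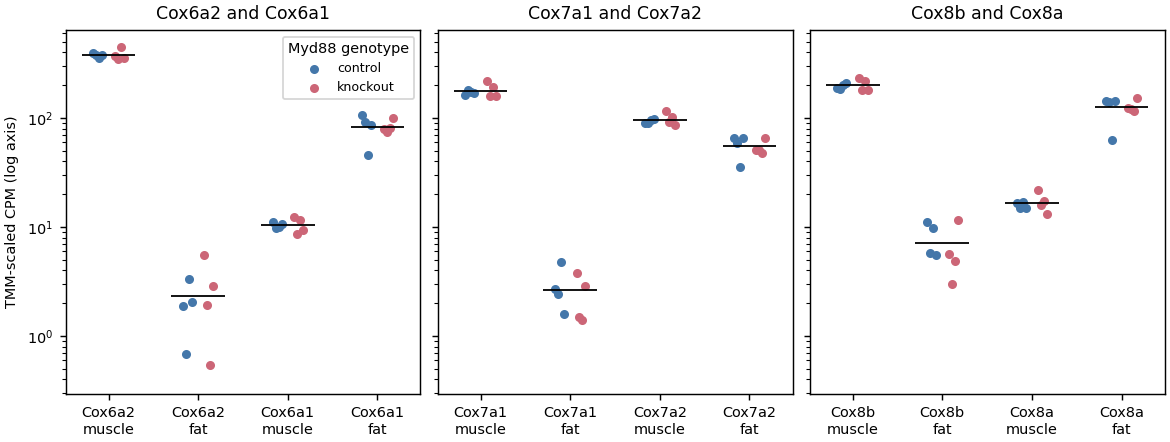
Level of each isoform gene in each library, as TMM-scaled CPM on a log axis, in muscle and visceral fat; points are libraries (blue, control mice; red, knockout mice) and lines are means over 8 libraries. Cox6a2, Cox7a1 and Cox8b sit at 158 CPM or more in muscle and at 11.5 CPM or less in fat, Cox6a1 and Cox8a lie the other way round, and Cox7a2 lies above fat in muscle.

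The ratio of the muscle form to the other form, per kilobase of exon, compares the partners within a library and needs no scaling between tissues. The mean log2 ratio of Cox6a2 to Cox6a1 was 5.23 ± 0.14 in muscle and -5.38 ± 1.26 in fat (SD, n = 8 each). That of Cox7a1 to Cox7a2 was 1.70 ± 0.06 in muscle and -3.66 ± 0.80 in fat, and that of Cox8b to Cox8a was 4.38 ± 0.13 and -3.43 ± 0.82 (SD, n = 8 each). In all 8 mice the muscle form exceeded its partner in muscle and was below it in fat. The differences between tissues were 10.60, 5.36 and 7.81. Each had a two-sided exact permutation p of 0.000155, the smallest that 8 against 8 libraries can give. Adjusted over the 3 pairs it was also 0.000155. That test treats the libraries as independent, although both tissues came from the same 8 mice. Paired by mouse, the exact sign-flip p was 0.00781, the smallest 8 mice can give.
The ratios varied more in fat than in muscle, with SDs of 0.80 to 1.26 against 0.06 to 0.14. Under TMM scaling each pair was higher as a whole in muscle. The summed level per kilobase, in RPKM (reads scaled by exon length and library size), was 574 ± 49.4 in muscle and 122 ± 25.8 in fat for subunit 6A (SD, n = 8 each). It was 433 ± 46.3 and 63.3 ± 10.3 RPKM for subunit 7A, and 581 ± 54.6 and 222 ± 46.6 RPKM for subunit 8 (SD, n = 8 each). Unlike the ratios, these sums depend on the scaling between tissues. The log2 of the muscle mean over the fat mean was 2.23 for subunit 6A, 2.77 for subunit 7A and 1.39 for subunit 8. Total count scaling moved the median tissue difference of all genes from -0.16 to -1.36. The sums were not tested under that scaling, and subunit 8 had the least margin.

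The residue of the muscle forms in fat was not the same for the 3 genes. Each fat level was written as a percentage of the gene's mean muscle level and set beside the same percentage for the 10 fibre markers, which include Ckm and the fast myosins. Cox6a2 stood in the fat of control mice 131, 137, 138 and 11 at 0.492, 0.182, 0.877 and 0.535%, and in that of knockout mice 139, 958, 960 and 29 at 1.46, 0.506, 0.144 and 0.755%. The median fibre marker stood in the same libraries at 0.519, 0.204, 0.884 and 0.525%, and at 1.65, 0.571, 0.159 and 1.06%. Cox6a2 thus lay at 0.713 to 1.02 times the median marker, and within the range of the 10 markers in 7 of 8 libraries. Mouse 139 was highest and mouse 960 lowest for both.
Cox8b stood at 5.59, 2.89, 4.89 and 2.80% in the controls and at 2.83, 1.49, 2.45 and 5.78% in the knockouts. This was above all 10 fibre markers in 8 of 8 libraries, by 1.72 to 15.4 times their median. Cox7a1 stood at 1.52, 1.38, 2.69 and 0.899% in the controls and at 2.13, 0.841, 0.794 and 1.62% in the knockouts, above all 10 markers in 7 of 8 libraries. Cox7a1 and Cox8b are also known as genes of brown and beige fat. In the same order of mice, the beige marker Cidea was at 4.64, 4.42, 19.6 and 1.24 CPM in the controls and at 1.51, 1.83, 5.23 and 13.4 CPM in the knockouts. The uncoupling protein gene Ucp1 was at 1.17, 2.90, 50.9 and 0.133 CPM, and at 0.0942, 0.529, 2.46 and 19.3 CPM. Mice 138 and 29, the highest for both, were among the 3 highest for Cox8b, together with mouse 131. The 3 highest for Cox7a1 were mice 138, 139 and 29, of which mouse 139 had the lowest Ucp1 of the 8 fat libraries. The 6 brown and beige markers summed to 3.56 to 86.1 CPM in fat, and Zic1, a marker of brown fat, was at 0 in all 8 fat libraries. The part of fibres or of beige adipocytes in these levels was not tested.

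**Figure D2:**
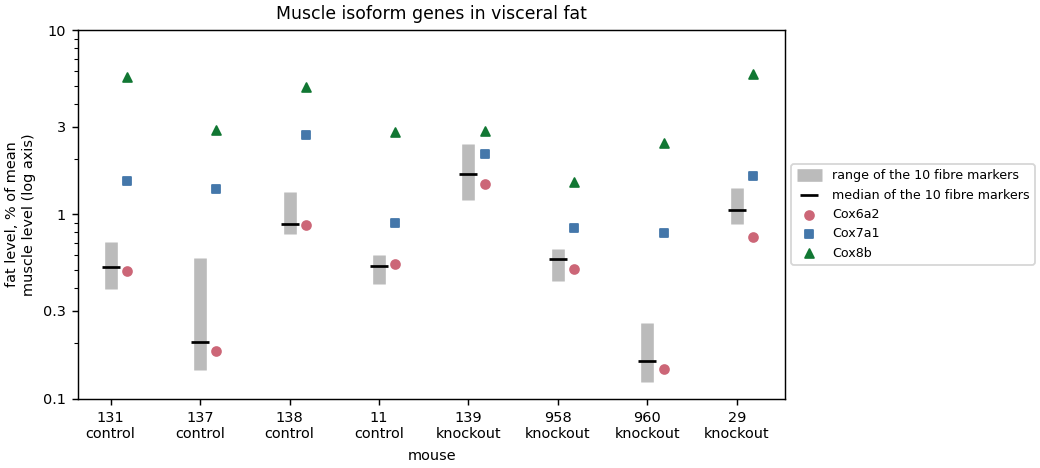
Level of Cox6a2, Cox7a1 and Cox8b in each visceral fat library as a percentage of the gene's mean level in muscle, on a log axis; grey bars span the 10 fibre markers and the dash is their median. Cox6a2 lies within the markers' range in 7 of 8 libraries, and Cox8b lies above it in 8 of 8.

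The converse residue, of Cox6a1 and Cox8a in muscle, was larger. Cox6a1 stood in muscle at 10.4 to 15.0% of its mean fat level and Cox8a at 10.6 to 17.4%. The median of the 8 adipocyte markers stood at 0.194 to 1.99%, and both genes were above all 8 markers in 8 of 8 muscle libraries. Red gastrocnemius also holds vessels, nerves and connective tissue, whose part in these levels was not tested.

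Outside the isoform pairs the tissue difference was more even. By edgeR, 35 of 37 genes were higher in muscle and 2 in fat, Cox6a1 and Cox8a, and the levels of 36 did not overlap between tissues, as against 52.1% of all genes tested. Across all 17084 genes tested 79.6% were called, 35.7% higher in muscle and 44% higher in fat, so a call by itself says little here. The median log2 difference was 1.55 over the 37 genes and -0.16 over all genes. The 31 genes outside the 3 pairs ranged from 1.03 to 3.89, with a median of 1.55. Scaling by total counts moved the median of all genes to -1.36 and that of the 37 to 0.37. Of the 37, 27 were then called higher in muscle and 3 lower. The distance between the 2 medians was 1.73 against 1.71, and 35 of the 37 lay above the median gene under both scalings. A change of scaling shifts every gene by nearly the same amount, so neither value can test the choice of scaling. TMM factors were 0.615 to 0.681 in muscle and 1.34 to 1.89 in fat.

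**Figure D3:**
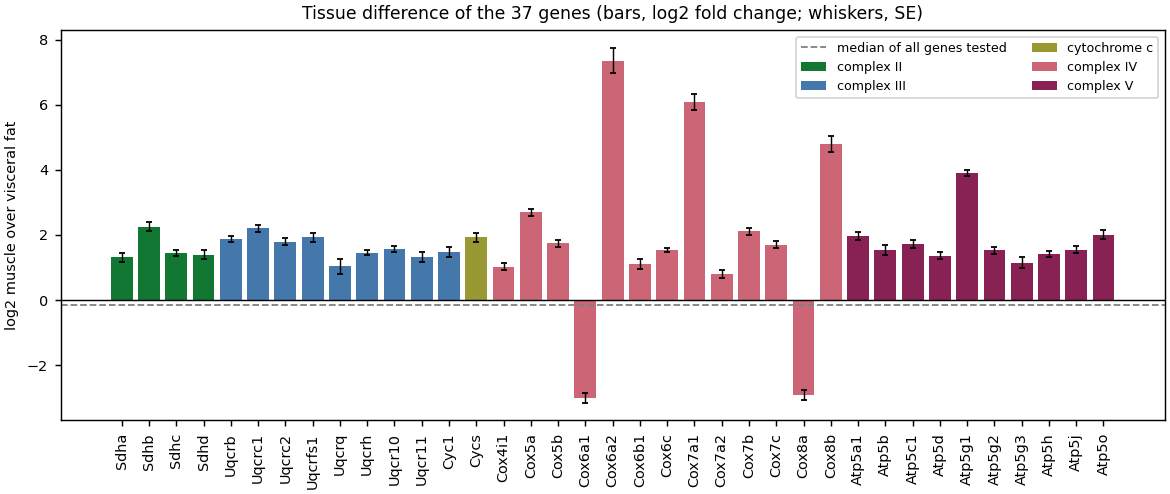
Log2 difference of muscle over visceral fat for each of the 37 genes by edgeR, coloured by complex; whiskers are SE and the dashed line is the median of all genes tested. Most bars lie between 1 and 2.3, Cox6a2, Cox7a1, Cox8b and Atp5g1 rise above 3, and Cox6a1 and Cox8a point to fat.

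The 4 subunits of complex II, called higher in muscle, had a median log2 difference of 1.42. Sdha, the flavoprotein that oxidises succinate, was at 725, 848 and 956 CPM (lowest, median, highest) in muscle and at 174, 346 and 397 CPM in fat. Sdhb, the iron-sulfur subunit, was at 322, 390 and 471 CPM in muscle and at 47.5, 84.1 and 105 CPM in fat. The membrane anchors Sdhc and Sdhd followed with 1.45 and 1.40, against 1.31 for Sdha and 2.25 for Sdhb (edgeR adjusted p from 3.93e-10 for Sdhb to 3.16e-07 for Sdha). Under total count scaling Sdha was at 0.13 and no longer passed.

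In complex III 9 of 9 genes were called higher in muscle, with a median of 1.57. The core protein genes Uqcrc1 and Uqcrc2 differed by 2.20 (SE 0.12) and 1.79 (SE 0.11) on the log2 scale, and Uqcrfs1, the Rieske iron-sulfur protein, by 1.93 (SE 0.14). Uqcrb, which helps to form the ubiquinone site, differed by 1.88 (SE 0.09), but 42.5% of its 51-base stretches also occur in other genes, mainly pseudogenes. Uqcrq, a small subunit, gave the least clear difference, 1.04 (SE 0.23, edgeR adjusted p = 0.000796), and was the 1 gene of the 37 whose levels overlapped. It was at 27.2, 58.0 and 85.0 CPM (lowest, median, highest) in muscle and at 12, 28.0 and 39.4 CPM in fat, at 0.85 without passing in controls only, and at -0.14 under total count scaling. Cycs, somatic cytochrome c, was at 150, 168 and 198 CPM in muscle and at 23.2, 45.0 and 55.8 CPM in fat, a log2 difference of 1.93 (SE 0.14, edgeR adjusted p = 3.72e-09). Of the 51-base stretches of Cycs, 28.4% also occur in other genes. The testis form, Cyct, had no read in any library.

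Among the other genes of complex IV, Cox5a, a subunit on the matrix side, showed the widest difference, 2.69 (SE 0.12). It was at 204, 253 and 268 CPM (lowest, median, highest) in muscle and at 25.9, 39.2 and 47.5 CPM in fat. Cox5b differed by 1.75, Cox7b by 2.11, Cox7c by 1.70 and Cox6c by 1.54 on the log2 scale. Other genes share 21.5% of the 51-base stretches of Cox5b and 22.9% of those of Cox7c. The regulatory subunit Cox4i1 and Cox6b1, which faces the intermembrane space, differed least, by 1.03 and 1.10, and stood at -0.16 and -0.08 under total count scaling.

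In complex V the catalytic genes Atp5a1 and Atp5b were among the highest of the 37 in both tissues. Atp5b was at 2346, 2621 and 3048 CPM (lowest, median, highest) in muscle and at 495, 938 and 1138 CPM in fat. Atp5a1 was at 2065, 2331 and 2807 CPM in muscle and at 447, 614 and 679 CPM in fat. Per kilobase of exon, Atp5a1, Atp5b, Cox6a2 and Cox8b headed the muscle levels with means of 757 ± 79.8, 629 ± 54.9, 559 ± 48.3 and 554 ± 51.3 RPKM (SD, n = 8). With the longest transcript as the length the order was Atp5b, Atp5a1, Cox4i1 and Cox6a2, so the order of neighbours is not settled by these counts.
The 3 genes of the c ring differed in their tissue pattern. Atp5g1 was at 180, 197 and 239 CPM (lowest, median, highest) in muscle and at 11.7, 13.7 and 15.9 CPM in fat. Atp5g2 was at 14.4, 16.7 and 21.8 CPM in muscle and at 4.95, 5.92 and 6.99 CPM in fat, and Atp5g3 at 111, 173 and 203 CPM and at 38.6, 76.4 and 99.6 CPM. Atp5g1 thus stood 14.8-fold higher in muscle, log2 3.89 (SE 0.09, edgeR adjusted p = 1.56e-14), the smallest p of the 37 genes. Atp5g2 and Atp5g3 differed by 1.53 (SE 0.11) and 1.15 (SE 0.16), and Atp5g3 stood at -0.03 under total count scaling. Levels were not ranked among the 3 genes by CPM, which does not correct for length, and their annotated transcripts run from 753 to 4715 bases. Stretches shared with other genes make up 36.7% of Atp5g2 and 10.9% of Atp5g1, and the sources used here do not give the authors' handling of such reads.
The remaining genes of complex V, Atp5c1 and Atp5d of the central stalk and rotor, and Atp5h, Atp5j and Atp5o of the stator, differed by 1.36 to 2.01 on the log2 scale. Of the 51-base stretches of Atp5h, 36.0% also occur in other genes.

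Other genes of the pathway were tested in the same fit. Of 12 other nuclear-encoded subunits tested, 10 were called higher in muscle and 2 in fat, with a median of 1.68. Those in fat were Atpif1, the inhibitor of the ATP synthase, at -0.46 (SE 0.12), and Cox6b2, a testis form of subunit 6B, which was below 1 CPM in every library. Of 34 assembly factors 27 were higher in muscle and 2 in fat, with a median of 0.84. Of 8 genes of mitochondrial content 7 were higher in muscle. The exception, Slc25a5, repeats the isoform pattern for the ADP/ATP carrier: it was at -2.36 (SE 0.11, edgeR adjusted p = 1.64e-11), while Slc25a4, the muscle form, was at 4.28 (SE 0.13, edgeR adjusted p = 2.26e-13).
Of 9 regulators 7 were higher in muscle, among them the coactivator gene Ppargc1a at 3.88 (SE 0.13) and the receptor gene Esrra at 1.93 (SE 0.07). Of the 6 mitochondrially encoded subunits outside complex I, 2 could be tested. mt-Co1 and mt-Cytb were higher in muscle by 1.62 (SE 0.23) and 1.15 (SE 0.25), on the log2 scale. mt-Co2, mt-Co3 and mt-Atp6 share 99.5 to 100.0% of their 51-base stretches with nuclear copies and were at about 1 CPM or less, while mt-Co1, which shares 50.6%, was at 30957 to 40291 CPM in muscle. mt-Atp8 shares 0.0% and was also at 0 to 0.0847 CPM. Stretches were searched only in annotated transcripts, so a copy outside them would not be seen. The exon of mt-Atp8 overlaps that of mt-Atp6 over 21.1% of its length.

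The comparison of genotypes sets the mice labelled knockout beside the controls, in muscle and in fat. As given above, Myd88 itself did not pass the test between these groups in muscle. In muscle none of the 37 genes was called by edgeR, DESeq2 or limma voom, and 0 had an unadjusted p under 0.05. Among all 14183 genes edgeR called 0.0141%, DESeq2 called 1 higher and 9 lower in the knockouts, and limma voom called 2 lower. The log2 fold changes of knockout over control ran from -0.02 to 0.47, the groups overlapped for each of the 37 genes, against 3.12% of all genes with no overlap, and the smallest adjusted p was 0.949. The median was 0.07 over the 37 genes and 0.00 over all genes, with 36 of 37 genes above 0 against 50.8% of all genes.
The sign of that median rested on few mice. Without knockout mouse 139, whose muscle held the highest level of 27 of the 37 genes, 18 genes were above 0 and the median was -0.00. Without knockout mouse 29, which held the lowest level of 16 genes, 37 were above 0 and the median was 0.13.

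Within these limits the genes with the smallest p were Cyc1, Atp5g1, Atp5g3 and Uqcrq. Cyc1, the haem subunit of complex III that reduces cytochrome c, was at 101, 140, 162 and 131 CPM in control mice 131, 137, 138 and 11 and at 129, 162, 178 and 155 CPM in knockout mice 139, 958, 960 and 29. Control mouse 131 was lowest and knockout mouse 960 highest. Its log2 fold change was 0.21 (SE 0.14, edgeR adjusted p = 0.949).
Atp5g1 was at 196, 180, 208 and 197 CPM in the controls and at 239, 196, 239 and 186 CPM in the knockouts, in the same order of mice. Mice 139 and 960 lay above all controls, and mice 958 and 29 within them. The log2 fold change was 0.13 (SE 0.09, edgeR adjusted p = 0.949).
Cycs, Cox7c, Uqcrh and Cox5b followed with 0.10 to 0.11 and SEs of 0.09 to 0.10. The isoform genes Cox6a2 and Cox6a1 were both at 0.01, with SEs of 0.09 and 0.13, and Cox8b and Cox7a1 at 0.05 and 0.07.

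Uqcrq had the largest fold change and the largest SE, 0.47 (SE 0.34, edgeR adjusted p = 0.949). It was at 27.2, 60.9, 55.2 and 48.7 CPM in control mice 131, 137, 138 and 11 and at 36.1, 69.9, 85.0 and 75.4 CPM in knockout mice 139, 958, 960 and 29. The lowest library of each genotype, 131 and 139, lay below all 6 others. Atp5g3 was at 111, 171, 174 and 165 CPM in the controls and at 148, 187, 203 and 180 CPM in the knockouts, and Atp5j, a stator subunit, at 114, 165, 171 and 154 CPM and at 145, 172, 167 and 157 CPM. Cyc1, Atp5g3 and Atp5j were also lowest in mice 131 and 139. So was Sdha, at 734 and 725 CPM, against 756 CPM or more in the other 6. Mouse 139 was the highest library for most of the remaining genes. Relative to the median of the 37 genes in the same library, Uqcrq was at -1.0 in mouse 131 and -0.95 in mouse 139 on the log2 scale, against -0.29 or more in the other 6. Atp5g3, Cyc1 and Atp5j were at -0.56, -0.46 and -0.42 in mouse 131 and at -0.49, -0.47 and -0.42 in mouse 139. Sdha was at -0.13 in mouse 131 and -0.50 in mouse 139, against -0.03 or more in the other 6. By this measure 4 more genes lay below the other 6 libraries in both mice, by less in mouse 131 than the 4 genes named first. They were Cox5a (-0.23 and -0.22), Uqcrc1 (-0.15 and -0.15), Uqcrc2 (-0.14 and -0.12) and Atp5d (-0.07 and -0.28). The pattern was thus graded. Uqcrq, Cyc1, Atp5g3 and Atp5j were singled out after their values were seen, and Sdha and the 4 further genes were not grouped with them.
The mitochondrial ribosomal RNA mt-Rnr2, a target of the depletion kit, was also lowest in these 2 libraries. It was at 15547, 67724, 31082 and 47309 CPM in the controls and at 8980, 49433, 46437 and 48657 CPM in the knockouts. Adipocyte markers were also, by their median, highest in the same 2 libraries. The median over the 8 markers of the level in percent of the mean fat level was 1.3, 0.249, 0.817 and 0.422 for the controls and 1.99, 0.194, 0.896 and 0.362 for the knockouts, with mice 131 and 139 named first in each. The part of either in the levels of the 4 genes was not tested. Without mice 131 and 139, an alternative chosen after seeing the data, 14 of the 37 genes were above 0, the median was -0.02, and 0 were called.

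**Figure D4:**
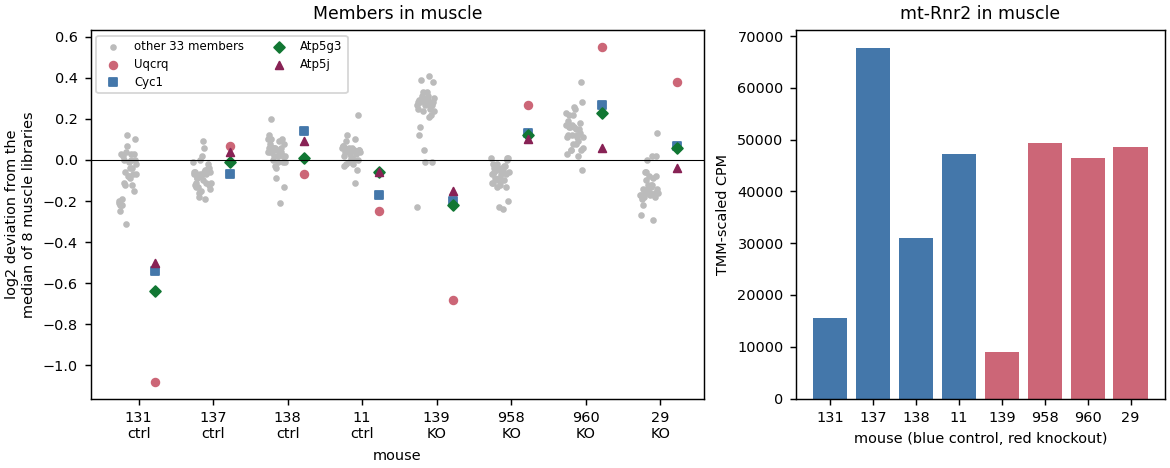
Left, log2 deviation of each gene from its median over the 8 muscle libraries, by mouse (ctrl, control; KO, knockout), with Uqcrq, Cyc1, Atp5g3 and Atp5j as coloured symbols and the other 33 genes in grey. Right, TMM-scaled CPM of mt-Rnr2 in the same libraries. In mice 131 and 139 the 4 genes lie below most of the grey points, Uqcrq at -1.08 and -0.68, and mt-Rnr2 is lowest. Sdha, one of the grey points, lies at -0.21 and -0.23 in these mice.

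Markers of fibre type also varied between the muscle samples. The 8 slow fibre markers summed to between 3474 and 4064 CPM among controls and between 2969 and 6864 CPM among knockouts. All 8 were above 0 in the comparison of genotypes, with a median of 0.57. None was called by edgeR, DESeq2 or limma voom, and 4 had an unadjusted p under 0.05. Mouse 29, lowest for 16 of the 37 genes, had the lowest slow myosin Myh7, 1408 CPM, and mice 139, 958 and 960 the highest, 3101, 3168 and 3176 CPM. Mouse 958 did not share the high levels of the respiratory genes, with a median deviation of -0.05 against 0.27 in mouse 139 and 0.15 in mouse 960. The part of fibre type was not tested.

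In the 5 lists of other pathway genes, edgeR called 0 of 64 genes in muscle, 4 had an unadjusted p under 0.05, DESeq2 called 1 and limma voom 0. The smallest p belonged to Ppargc1a, which drives the making of mitochondria. It was at 92.9, 128, 106 and 108 CPM in the controls and at 81.8, 70.7, 70.7 and 70.7 CPM in the knockouts. All 4 knockouts lay below all 4 controls, but the log2 fold change of -0.58 (SE 0.10) did not pass over all genes. By edgeR its p was 3.61e-05 and its adjusted p 0.128. Over the alternatives the adjusted p of the model fits ran from 1.28e-06 with no filter on low counts to 1 with all 16 libraries in 1 fit. It was 0.000355 with DESeq2, and 0.0375 without mouse 131 and 0.0301 without mice 131 and 139 by edgeR. The median of the 37 genes was 0.07.

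**Figure D5:**
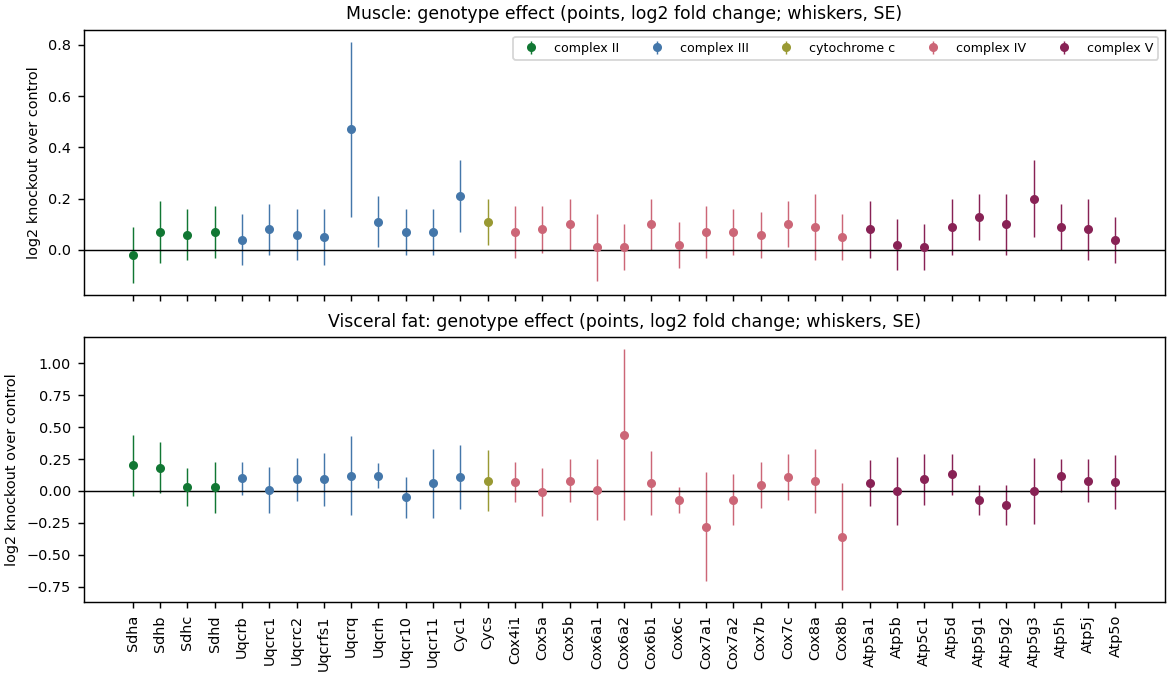
Log2 fold change of knockout over control for each of the 37 genes in muscle (top) and visceral fat (bottom) by edgeR, coloured by complex; whiskers are SE. Points in muscle lie between -0.02 and 0.47 and in fat between -0.36 and 0.44, and none passed the test.

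In visceral fat 0 of 37 genes were called by edgeR, DESeq2 or limma voom, and 0 had an unadjusted p under 0.05. Among all 16323 genes edgeR called 0.00613%, DESeq2 called 33 higher and 39 lower in the knockouts, and limma voom called 0. The log2 fold changes ran from -0.36 to 0.44, the groups overlapped for each of the 37 genes, against 6.32% of all genes with no overlap, and the smallest adjusted p was 0.724. The median was 0.07 over the 37 genes and -0.01 over all genes, with 27 of 37 above 0 against 47.9% of all genes. The library of control mouse 138 held the lowest level of 31 genes, with a median deviation of -0.62. Without it 6 of 37 genes were above 0 and the median was -0.08, and without knockout mouse 29, which held the highest level of 16 genes, 12 were above 0 and the median was -0.03.

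The smallest p in fat belonged to Uqcrh, the hinge protein of complex III. It was at 91.4, 88.6, 77.0 and 98.9 CPM in control mice 131, 137, 138 and 11 and at 95.3, 95.9, 94.5 and 101 CPM in knockout mice 139, 958, 960 and 29. Control mouse 138 was lowest, and the knockouts lay within a narrow band beside mouse 11. The log2 fold change was 0.12 (SE 0.10, edgeR adjusted p = 0.724).
Atp5h, Sdhb, Sdha, Atp5d, Uqcrb and Cox6c had log2 fold changes of -0.07 to 0.20. Cox8b, whose levels were 11.1, 5.76, 9.76 and 5.57 CPM in the controls and 5.65, 2.98, 4.88 and 11.5 CPM in the knockouts, was at -0.36 (SE 0.42). Cox6a2 had the highest value, 0.44 (SE 0.67), and its level reached 3.33 CPM among controls and 5.56 CPM among knockouts. The 10 fibre markers were above 0 in 10 of 10 cases in this comparison, with a median of 0.68, 0 calls by edgeR, DESeq2 or limma voom and 0 with an unadjusted p under 0.05. In the 5 pathway lists edgeR called 0 of 65 genes in fat, 3 had an unadjusted p under 0.05, and DESeq2 and limma voom called 0.

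No log2 ratio within a pair passed the test between genotypes. In muscle the differences of knockout minus control were 0.00 for Cox6a2 to Cox6a1, -0.00 for Cox7a1 to Cox7a2 and -0.03 for Cox8b to Cox8a, with two-sided exact permutation p of 1, 1 and 0.743. Group SDs in muscle were 0.04 to 0.19. In fat the differences were 0.17, -0.24 and -0.61, with exact permutation p of 0.8, 0.743 and 0.429 and group SDs of 0.63 to 1.38. All 6 adjusted p were 1, where 4 mice against 4 can give no p below 0.0286.

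The genotype effect was also compared between tissues, as an interaction over all 16 libraries. On simulated counts this fit recovered only 31.0% of the genes changed by 1 on the log2 scale, so it can miss real differences. By edgeR 0 of 37 genes were called, 0 had an unadjusted p under 0.05, and DESeq2 and limma voom called 0, as against 0% of all 17084 genes by edgeR. The differences of the effect in muscle minus that in fat ran from -0.42 for Cox6a2 to 0.42 for Cox8b. Atp5g1 had the smallest p, with a difference of 0.21 (SE 0.15, edgeR adjusted p = 0.789). The median was 0.03 over the 37 genes and 0.03 over all genes. It was 0.18 without mouse 138 and -0.16 without mice 131 and 139.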

How the data were processed

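The deposited table holds raw read counts, not scaled by the authors, of 55536 genes in 16 libraries, per the file headers and whole-number values. Libraries were stranded and depleted of ribosomal RNA, per the labels' protocols. The submitters' processing notes name GRCm38, featureCounts 1.6.3, STAR 2.7.0f and DESeq2 1.22.2; the sources used here do not give the annotation, the strand setting or the treatment of reads with several matches. Symbols and lengths came from GENCODE M21.

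Each comparison was tested over all genes with edgeR 4.0.16 (quasi-likelihood F test, TMM scaling, filterByExpr, robust) in R 4.3.3, called at a Benjamini-Hochberg adjusted p under 0.05. Genotype was fitted within a tissue, tissue and interaction over 16 libraries without a mouse term. DESeq2 1.42.0, limma voom (limma 3.58.1), other scalings and filters, a mouse block, and leaving out mice were alternatives. Isoform ratios, with 0.5 added to counts, were tested by exact permutation in scipy 1.17.1. The SE is the absolute log2 fold change over the square root of F. The model fits were also run on simulated counts with 200 genes changed by 1 on the log2 scale. They recovered 83.5% of these for genotype in muscle and 89.5% in fat. For the tissue difference it was 100.0%, but for the interaction only 31.0%. The simulated counts had the same spread for every gene and the same composition in every library, apart from the changed genes. Only genes with higher counts were changed, and no library was made to differ as the fat of mouse 138 did. The shares therefore do not give the power of the fits on the real counts.

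By the subject labels, muscle and fat libraries with the same number come from the same mouse, so by design they are not independent. Their deviations from group means correlated at -0.02 to 0.166 across 17084 genes. Control mice 137, 138 and 11 were at -0.000396, -0.02 and 0.0141, and their own fat library was not the best match. In control mouse 131 and the 4 knockouts it was. The 37 genes, the gene lists and the markers were chosen with earlier results of these data known. Named genes were the isoform pairs, the c-ring genes, and those past the threshold or with the 8 smallest p in a comparison, with at most 4 from each pathway list; Cox6b2, Cyct, mt-Rnr2 and the grouping of Uqcrq, Cyc1, Atp5g3 and Atp5j were taken after seeing values.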

Additional observations from a re-analysis of the deposited data

Results flagged for a closer look

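In groups of 4, a library was singled out when its gap to the nearest other was wider than Dixon's 95% critical share of the range of the group. Of 148 groups checked (37 genes in 4 groups), 15 had such a library, where chance gives about 1 in 20. The fat of control mouse 138 accounted for 9 of these. It was low at 46.2 CPM for Sdhc, 70 for Uqcrc1, 28.1 for Uqcr11, 158 for Cox4i1, 62.6 for Cox8a, 447 for Atp5a1, 123 for Atp5c1 and 45.1 for Atp5h. It was high for Atp5g1, at 15.9 CPM against 13.4 to 13.7 in the other controls. In this library the adipocyte markers summed to 3784 CPM and the smooth muscle markers to 10220 CPM; their part in these levels was not tested.

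The fat of knockout mouse 29 was high for 4 genes, at 105 CPM for Sdhb, 75.8 for Sdhc, 39.4 for Uqcrq and 159 for Cox6b1. In muscle, knockout mouse 960 was high for Atp5d at 204 CPM, against 156 to 159 in the other knockouts. Control mouse 131 was low for Atp5g3 at 111 CPM, against 165 to 174 in the other controls.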

How the results depend on the processing

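No gene of the 37 was called for genotype in muscle, in fat or in the interaction under any alternative, and 35 higher and 2 lower calls between tissues held under all but 2 of them. These were controls only, with 34 higher, and total count scaling, with 27 higher and 3 lower. Under total count scaling the median tissue difference was 0.37, Uqcrq stood at -0.14, Cox4i1 at -0.16, Cox6b1 at -0.08, Cox7a2 at -0.39 and Atp5g3 at -0.03, and Sdha, Uqcr11 and Atp5d kept their direction without passing. With the mouse as replicate block, the tissue median was 1.57 with 35 and 2 calls, the interaction median was -0.01, and the isoform ratios had an exact sign-flip p of 0.00781, the smallest 8 mice can give; the block changed no call. Leaving out 1 mouse at a time moved the isoform ratio differences between tissues to 10.34 to 10.87, 5.24 to 5.58 and 7.67 to 8.04. The small genotype values changed sign when 1 mouse was left out: Atp5d in fat ran from -0.01 to 0.20 and Uqcrb in fat from -0.01 to 0.17. The ratio of Cox6a2 to Cox6a1 ran from -0.04 to 0.10 in muscle and -0.34 to 0.78 in fat, Cox7a1 to Cox7a2 from -0.03 to 0.04 and -0.57 to 0.24, and Cox8b to Cox8a in muscle from -0.10 to 0.02. With 4 mice a group, differences of the size of the SEs given are not detectable.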
